A study of Homo sapiens with 8 samples.

Results

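Early tiles are 1-kb stretches of DNA that were highly methylated before DNMT1* was withdrawn and had already lost much of that methylation on day 2. They were selected on measured values, namely their levels on days 0, 2 and 6. A tile had to be autosomal and hold at least 3 CpGs with 10 or more reads in each of the libraries of days 0, 1, 2, 6 and 7. Its level is the methylated share of the reads at those CpGs. It had to stand at 80% or more on day 0, to hold 100 or more reads on day 2, and to have a day 6 level above 0.15 and below 0.40 of day 0. Of 263521 autosomal tiles with enough CpGs, 115933 met the day 0 level and the day 2 reads, and 107363 also met the day 6 window and are called eligible. Early tiles are the 1965 eligible tiles whose day 2 level was 0.70 or less of day 0, and the other 105398 eligible tiles are what they are set against. The day 2 rule thus took 1.83% of the eligible tiles. The day 6 window left out 452 tiles that would have passed on day 2, 419 of them at or below 0.15 of day 0 and 33 at or above 0.40.

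The cells are HUES64, an established human embryonic stem cell line, with the genotype given as DNMT1 knockout in every sample, day 0 included. The groups are days 0 to 7 of DNMT1* withdrawal, with 1 library per day, from a single course in a single line. DNA was measured by reduced representation bisulfite sequencing (RRBS), in which a restriction digest enriches CpG-rich fragments and bisulfite treatment lets methylated and unmethylated cytosines be told apart. CpG read calls numbered 77691782 to 161534152 per library on days 0, 1, 2, 6 and 7 and 12359218 to 15156251 on days 3, 4 and 5, so the 3 shallow libraries are read only as sums over many tiles or with wide intervals. A read that covers several CpGs may be counted at each, which the sources used here do not state, and PCR copies cannot be told from separate molecules here, so all intervals below cover counting error only and may be too narrow.

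CpG methylation is symmetric, and each round of DNA replication leaves the new strand unmethylated. DNMT1 is the enzyme that restores the mark on that strand, and DNMT1* is an exogenous, repressible copy on which a line without the endogenous gene depends. Without DNMT1, methylation is diluted as cells divide, while the de novo enzymes DNMT3A and DNMT3B can still place the mark at unmethylated sites. How far a region has gone on a given day thus depends on cell division, on any remaining maintenance and on de novo activity. None of these was measured in these libraries, and their part in the results was not tested.

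What chose the tiles is given first, as a description. On day 2 the early tiles had a lowest level of 40.4%, a median of 57.7% and a highest of 67.6%, and the other eligible tiles had 56.2%, 72.0% and 94.5%. On day 0 the medians were close, at 85.8% in early and 86.0% in other tiles. On day 6 they were 19.2% and 21.4%. The ratio of day 2 to day 0 lay between 0.65 and 0.70 in 1583 of the 1965 early tiles (80.6%) and at or below 0.60 in 62. Most early tiles therefore lie near the limit, in a range of ratios that goes on past it. Whether any of them form a separate class of regions was not tested. The 518 tiles just inside the limit, at 0.69 to 0.70, had a median day 1 level of 78.1% and a median day 7 level of 15.5%. The 755 tiles just outside it, at 0.70 to 0.71, had 78.1% and 16.05%. Counting error can move a tile between bands this narrow, so their likeness cannot decide that question.

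**Figure D1:**
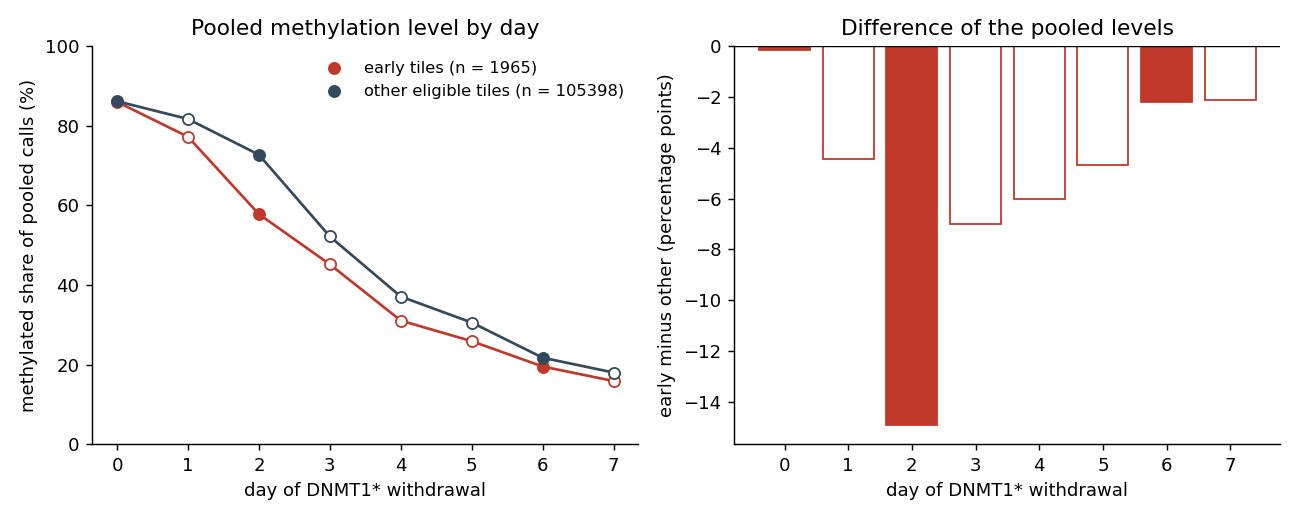
Left, the methylated share of all pooled calls (%) in early and other eligible tiles by day of DNMT1* withdrawal; filled points are days used to choose the tiles and open points are days not used. Right, the difference between early and other tiles in percentage points, which is -14.9 on day 2, where the tiles were chosen. On the days not used it is between -7.0 and -4.46 on days 1, 3, 4 and 5, and -2.13 on day 7.

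Days 1, 3, 4, 5 and 7 were not used in the choice of the day 2 limit, and the early tiles stood lower on each of them. Over all calls pooled, early tiles stood at 86.0, 77.2, 57.8, 45.2, 31.05, 25.9, 19.5 and 15.9% on days 0 to 7, and other eligible tiles at 86.1, 81.7, 72.7, 52.2, 37.1, 30.6, 21.7 and 18%. The early minus other difference on days 1, 3, 4, 5 and 7 was -4.46, -7.0, -6.02, -4.68 and -2.13 points. On the shallow days the Wilson 95% intervals of the pooled shares did not overlap, with 44.7 to 45.6% in early tiles and 52.1 to 52.2% in other tiles on day 3. These intervals treat every call as separate and leave out the spread between tiles, so they do not test the difference. The difference of -14.9 points on day 2 was fixed by the rule and is larger than on either neighbouring day. With 1 library per day there is no replicate behind any of these differences.

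The steps are given as a description, since days 0, 2 and 6 are part of the rule. Of the whole loss up to day 7, early tiles had undergone 40.2% by day 2 and other tiles 19.7%. The step from day 0 to day 1 was -8.77 points in early and -4.46 points in other tiles. The step from day 2 to day 3 was -12.6 points in early and -20.5 points in other tiles. From day 2 to day 6, early tiles kept 33.8% of their level and other tiles 29.9%. From day 6 to day 7 they kept 81.3% and 82.9%.

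On day 1 the early tiles already had a lower level. Their lowest, median and highest levels were 41.0, 77.4 and 100%, and those of the other tiles were 42.9, 81.5 and 100%. The groups overlap over nearly their whole range, but the early distribution is shifted downwards. Of the 1965 early tiles, 1391 (70.8%) lay below the median of the other tiles, against 50.3% of all eligible tiles. This level shares no reads with those that chose the tiles. As a ratio to day 0, which does share the day 0 reads, the medians were 0.90 in early and 0.945 in other tiles. A day 1 level at or below 0.90 of day 0 was found in 978 early tiles (49.8%), against 22.1% of all eligible tiles. In 166 early tiles (8.45%) the day 1 level was equal to or above day 0, as in 14.7% of the other tiles.

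**Figure D2:**
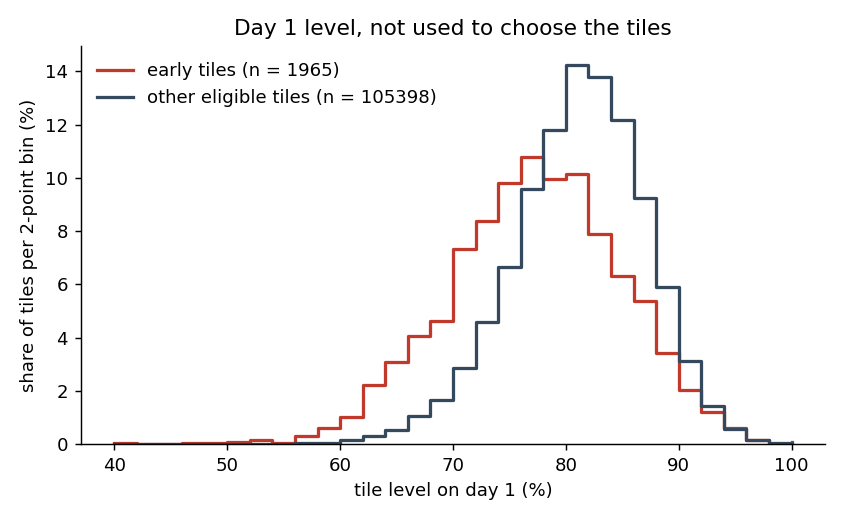
Distribution of the tile level on day 1 (%, 2-point bins, as a share of each group of tiles) for 1965 early and 105398 other eligible tiles. The early tiles are shifted to lower levels, with a median of 77.4% against 81.5%, and the distributions overlap over most of their range.

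Fisher's exact test of methylated and unmethylated calls (two-sided, Benjamini-Hochberg adjusted over all 107363 eligible tiles at 0.05) called 546 early tiles (27.8%) lower on day 1 than on day 0, against 20.5% of all eligible tiles. Called higher were 1 of the 1965 early tiles and 164 of all 107363 eligible tiles. The test uses the day 0 reads that also entered the rule, so a tile with a day 0 level high by chance is favoured among the early ones, and the 2 shares are a description. The test compares 2 libraries and not 2 conditions. Its power grows with the calls per tile, which are fewer in early tiles. It also treats every call as a separate molecule. With the calls averaged over the CpGs of a tile, an alternative added after seeing the data, 0 tiles passed among all eligible ones, and 95 early tiles (4.83%) had an unadjusted p below 0.05, against 1.28% of all eligible tiles.

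The day 1 level followed the day 2 ratio within the early tiles. The 62 tiles at or below 0.60 had a median of 73.5% on day 1, the 320 tiles between 0.60 and 0.65 had 75.7%, and the 1583 tiles between 0.65 and 0.70 had 77.9%. The classes also differed on day 0, with medians of 84.2, 85.7 and 85.9%. Their median day 1 ratios to day 0 were 0.866, 0.885 and 0.904. The pooled day 3 levels of these classes were 38.8, 43.5 and 45.7%, and the pooled day 4 levels 26.7, 30.5 and 31.3%. Outside the limit the same order went on: the 6785 tiles between 0.70 and 0.75 had 78.7% on day 1 and 47.0% on day 3, and the 11587 tiles above 0.90 had 83.3% and 56.0%. On day 7 the early classes had no such order, with medians of 15.9, 15.04 and 15.6%, against 16.4% in the tiles between 0.70 and 0.75.

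On day 7, early tiles had a lowest, median and highest level of 0, 15.5 and 38.7%, and the other tiles 0, 17.8 and 63.3%. Of the early tiles, 1310 (66.7%) lay below the median of the other tiles, against 50.3% of all eligible tiles. Day 7 is close to day 6, which the rule used, so it was also read within bins of the day 6 ratio. At a day 6 ratio of 0.15 to 0.20 the day 7 medians were 13.6% in 656 early tiles and 14.6% in the others. At 0.35 to 0.40 they were 21.1% in 74 early tiles and 25% in the others. The early tiles had the lower median in each of the 5 bins, with differences between -3.94 and -0.969 points. Of them, 1200 (61.1%) lay below the median of the other tiles in their bin, which divides those other tiles about evenly. The share over all eligible tiles was not computed within bins. The day 7 level was equal to or above day 6 in 459 early tiles (23.4%) and in 20.7% of the other tiles.

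Early tiles held few CpGs. The median number of CpGs listed in the tile in any library was 4 in early and 6 in other tiles, and 1537 early tiles (78.2%) had fewer than the median of the others, against 46.2% of all eligible tiles. Of the CpGs that passed the read minimum, 973 early tiles (49.5%) had just 3, the smallest number the rule allows, as did 23.8% of the other tiles. Only 1 early tile had 20 or more listed CpGs, whereas 7.07% of the other tiles did. The share of eligible tiles that were early was 3.71% at 3 listed CpGs, 2.34% at 5, 0.785% at 8 to 11 and 0.260% at 12 to 19. The median day 2 ratio moved in the same direction over these classes of all eligible tiles, from 0.821 to 0.850, and its standard deviation between tiles was 0.0655 at 3 listed CpGs and 0.0460 at 12 to 19. Few CpGs thus went both with a lower centre and with a wider spread.

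Early tiles also had fewer calls, both per tile and per CpG. Early tiles had a median of 177 calls on day 2, and other tiles 308. Per CpG the medians were 48.2 and 57, and among tiles with 3 passing CpGs they were 149 and 174 calls per tile. The share of early tiles was 5.59% among eligible tiles with 100 to 149 calls on day 2, 2.04% at 200 to 299, 0.201% at 500 to 999, and 0 of 7921 tiles at 1000 or more. Over all eligible tiles, the median day 2 ratio was 0.818 at 100 to 149 calls and 0.863 at 1000 or more. Its standard deviation between tiles was 0.0745 and 0.0363. On days 1, 3 and 7, the early tiles with 500 or more calls stood further from the other tiles than those with 100 to 149. How much of the choice, or of these gaps, rests on counting error was not tested. With 100 to 149 calls, the medians on day 1 were 77.3% in 670 early tiles and 80.7% in the others, and the pooled day 3 levels were 47.0% and 50.2%. With 500 to 999 calls, they were 76.0% in 41 early tiles and 81.6% in the others on day 1, and 39.0% and 52.3% on day 3. The day 7 medians at that depth were 12.2% and 17.9%. Restricted to tiles with 300 or more calls on day 2, a setting added after seeing the data, 211 of 253 early tiles (83.4%) lay below the day 1 median of the others. The share over all eligible tiles was not computed for that setting.

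**Figure D3:**
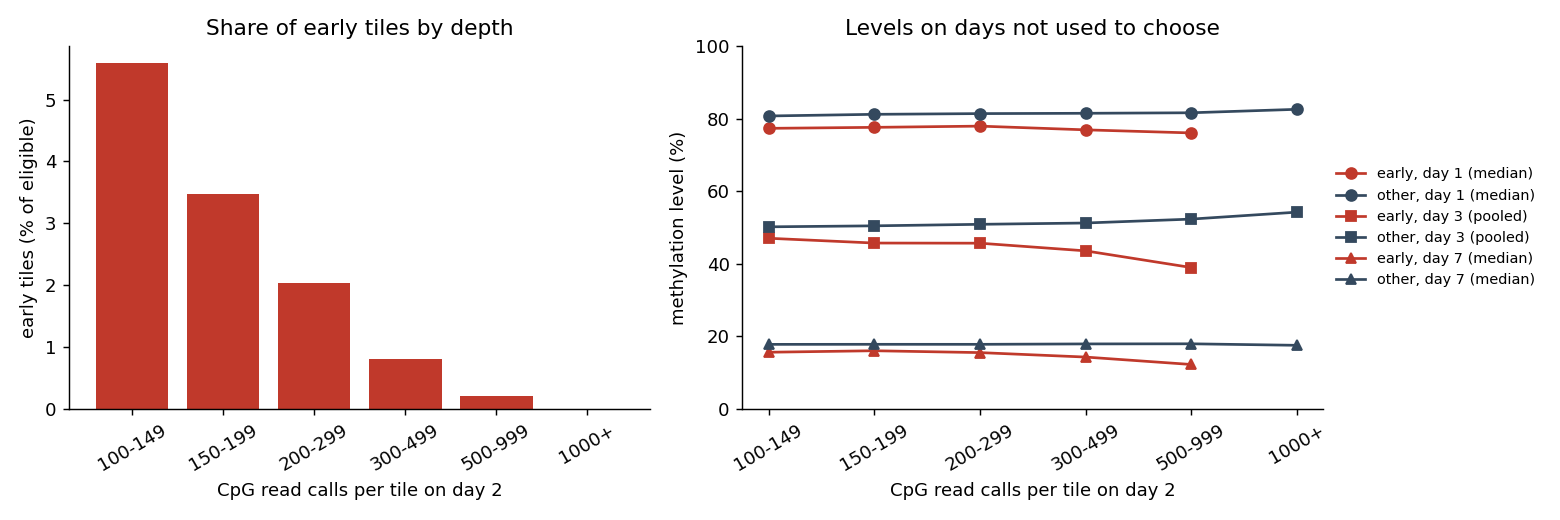
Left, the share of eligible tiles that were early (%) by CpG read calls per tile on day 2, from 5.59% at 100 to 149 calls to 0 at 1000 or more. Right, levels (%) in early and other tiles of the same depth on days 1, 3 and 7, which did not set the day 2 limit; the early tiles are lower in each class that holds any, and the day 3 gap is widest at 500 to 999 calls.

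The day 1 gap was also present within classes of CpG number. Among tiles with 3 passing CpGs, the day 1 medians were 77.8% in early and 81.8% in other tiles. With 8 to 11 they were 76.5% in 49 early tiles and 81.3% in the others. The 9 early tiles with 12 or more passing CpGs had 72.6%, against 81.9% in the others. On the pooled calls of day 3, the same classes read 45.8 and 50.8%, 40.6 and 51.6%, and 39.1 and 53.7%. The early tiles were lower in each of the 6 classes of CpG number on both days.

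The CpGs within the tiles are given as a description, since their reads on days 0 and 2 are those that chose the tiles. The early tiles held 7828 passing CpGs, of which 4835 (61.8%) were themselves at 0.70 or less of day 0 on day 2, against 8.20% of the CpGs in other tiles. In 1700 early tiles (86.5%) at least 2 CpGs were that low, against 13.6% of the other tiles. In 203 early tiles (10.3%) all CpGs were, as in 1 of the other tiles. In 265 early tiles at most 1 CpG was. The lowest CpG of an early tile had a median ratio of 0.574 and the highest 0.770. With a median of 48.2 calls per CpG on day 2, how much of that range is counting error was not tested. The CpGs of an early tile spanned a median of 134 bp, so many can share reads and are not separate measurements.

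CpGs of the same tiles that missed the read minimum in some library did not enter the tile level. They are not independent of the choice, because they come from the same libraries and can lie on the same reads as the CpGs that did. There were 1259 of them in 545 early tiles and 121443 in 40959 other tiles. Their pooled levels in early tiles were 80.7, 74.2, 63.3 and 44.9% on days 0 to 3. In other tiles they were 82.3, 77.5, 68.6 and 47.9%. On day 2 they thus kept 78.4% of day 0 in early tiles (Wilson interval of the level 62.6 to 64.0%) and 83.3% in other tiles (68.5 to 68.7%). They had the direction of the tile, which shared reads can give, with a difference of -5.28 points on day 2 where the CpGs that chose the tiles had -14.9. By day 7 both groups stood at about the same level, 16.8% in early and 17.1% in other tiles.

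**Figure D4:**
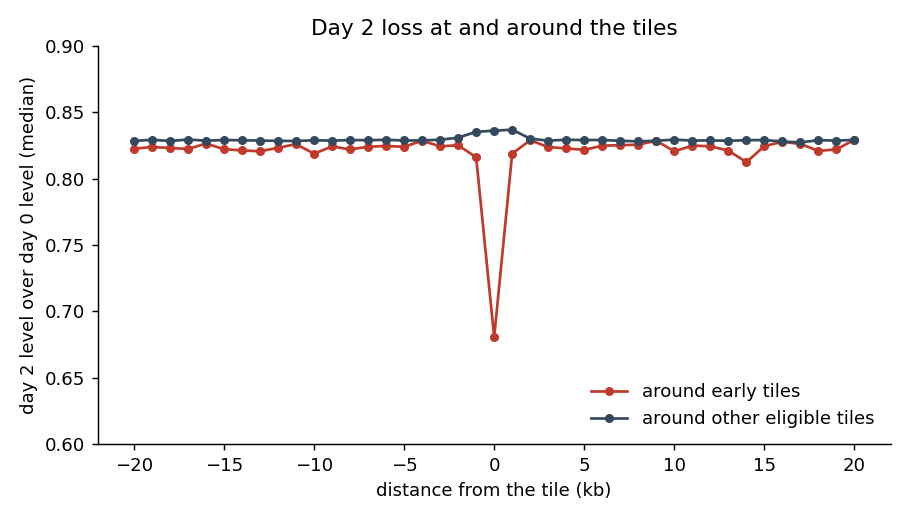
Median ratio of the day 2 to the day 0 level in 1-kb tiles by distance (kb) from early and from other eligible tiles, using tiles at 60% or more on day 0; the vertical axis starts at 0.6. The dip at distance 0 comes from the choice of the tiles, and from 2 kb outwards the medians were 0.812 to 0.829 around early tiles and 0.827 to 0.831 around other tiles.

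The surroundings of the tiles were read next. In the 2 adjacent tiles together, which the rule did not use, CpGs with 10 or more reads on days 0 and 2 and a joint day 0 level of 60% or more were found beside 980 early and 60967 other tiles. The median ratio of day 2 to day 0 there was 0.818 beside early tiles and 0.837 beside other tiles, and those tiles themselves stood at 0.679 and 0.838. The contrast between an early tile and its flanks follows from the choice of the tile, so only flanks are set against flanks. Of the early tiles' flanks, 593 (60.5%) lay below the median of the others' flanks, against 50.2% of all flanks. Only 62 (6.33%) reached 0.70 or less, against 4.01% of all flanks. At 2 to 20 kb on either side, the median around early tiles was below that around other tiles at 36 of 38 distances, with a largest difference of -0.0165. Across 61947 eligible tiles with flanks, the ratios of tile and flank correlated at r = 0.112. Tile and flank share libraries and regional depth, and tiles are not replicates.

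Early tiles were scattered rather than gathered in blocks. They lay on all 22 autosomes and made up between 1.30% (chromosome 13, Wilson interval 0.938 to 1.79%) and 2.65% (chromosome 15, 2.16 to 3.25%) of the eligible tiles of each. On every one of the 22, the early tiles had the lower median on days 1 and 7 and the lower pooled level on day 3. Of 502 eligible tiles adjacent to an early tile, 18 (3.59%) were early too, and of 3585 at 2 to 10 kb, 62 (1.73%) were, beside the 1.83% of all eligible tiles. There were 36 runs of early tiles within 10 kb of each other, with 76 tiles in all, and none held more than 3. Tiles on either side of a border can share reads.

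Their surroundings were close to those of the other tiles. The nearest low-methylated tile, one at 20% or less on day 0 with 10 or more CpGs and so like a CpG island, was a median of 39 kb away from early and 40 kb from other tiles. Within 2 kb of one lay 4.27% of early and 3.47% of other tiles. Within 5 Mb of a chromosome end lay 20.4% of early and 23.7% of other tiles. In the 50 kb on either side, leaving out the tile and its flanks, the median day 0 level was 64.3% around early and 65.2% around other tiles. The median regional ratio of day 2 to day 0 was 0.827 around early and 0.830 around other tiles, and 56.5% of the early tiles lay below the median of the others. The share over all eligible tiles was not computed for this regional ratio.

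The distances between neighbouring CpGs stand in for sequence, since no genome of the files' build was used here. Among tiles with 4 or more listed CpGs, the run of 4, 2 and 10 bp was the most frequent one in early tiles, in 30 of 1223 (2.45%), and was found in 3.59% of the other tiles. The run of 4, 8 and 4 bp was found in 1.14% of early and 5.66% of other tiles. Tiles with more CpGs hold more runs. At 4 listed CpGs, 5.91% of early and 3.93% of other tiles held a run seen in 100 or more eligible tiles, and at 8 to 11 listed CpGs 8.33% of early and 27.9% of other tiles did.

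In 22 early tiles the day 2 ratio was past the limit by more than counting error, in that the upper Wilson limit of day 2 was at or below 0.70 of the lower limit of day 0. They lay on 16 chromosomes and had 115 to 552 calls on day 2. With calls averaged over CpGs, 0 tiles met that condition. Their lowest, median and highest levels on day 0 were 80, 83.8 and 91.3%, beside a median of 86.0% in the other eligible tiles. Day 1 gave 55.6, 70.7 and 85.4%, day 2 gave 40.4, 46.3 and 53.1%, day 6 gave 12.8, 17.2 and 25.7%, and day 7 gave 5.38, 16.2 and 22.1%. On day 1, 19 of the 22 lay below the median of the other eligible tiles, and on day 7, 17 did, against 50.3% of all eligible tiles on each day. Pooled, they read 36.3, 26.5 and 26.4% on days 3, 4 and 5. Of their 91 CpGs, 84 were at 0.70 or less on day 2, and in 15 tiles every CpG was. The reads of these CpGs chose the tiles, so these counts, and those of low CpGs in the named tiles below, are a description. In the 11 with a usable flank, the flank's ratio was 0.667 to 0.914, with a median of 0.830, beside 0.837 for the flanks of the other tiles.

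The lowest ratio belonged to chr4:2351001-2352000 (hg19), with 3 CpGs within 16 bp. For days 0 and 1 it had 123 methylated of 151 calls (81.5%) and 30 of 46 (65.2%). Day 2 gave 59 of 146 (40.4%, Wilson interval 32.8 to 48.5%), day 6 gave 12 of 57 (21.1%) and day 7 gave 21 of 129 (16.3%). All 3 CpGs were low on day 2, and its flanks had a ratio of 0.861. On days 3, 4 and 5 it had 12 calls each and read 33.3, 33.3 and 41.7%, so its middle course cannot be resolved.

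Next came chr8:40782001-40783000, at 86.4, 74.2, 44.3, 25.7 and 5.38% on days 0, 1, 2, 6 and 7, the last from 5 of 93 calls. The tile chr17:76279001-76280000 read 81.7, 68.1, 42.6, 22.2 and 22.1% on the same days. At chr19:34387001-34388000 the levels were 86.0, 62.7, 45.6, 22.96 and 11.5%. Of the 8 lowest, this tile alone passed Fisher's exact test on day 1 (adjusted p = 0.0018 over all eligible tiles).

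The tile chr1:25462001-25463000 had a smaller first step than these: its levels for days 0, 1 and 2 were 82.2, 78.5 and 43.6%, with a Wilson interval of 71.3 to 84.4% for day 1. That interval overlaps the day 1 interval of each of the tiles above, and the difference was not tested. At chr22:20423001-20424000 the levels were 82.0, 69.5, 44.1, 15 and 12.6% on days 0, 1, 2, 6 and 7. At chr2:70355001-70356000 they were 80, 65.7, 43.3, 23.1 and 16.7%. The last of the 8, chr7:127715001-127716000, read 81.7, 68.6, 44.4, 18.1 and 18.1%, and its flanks, with a ratio of 0.667, were also low on day 2.

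**Figure D5:**
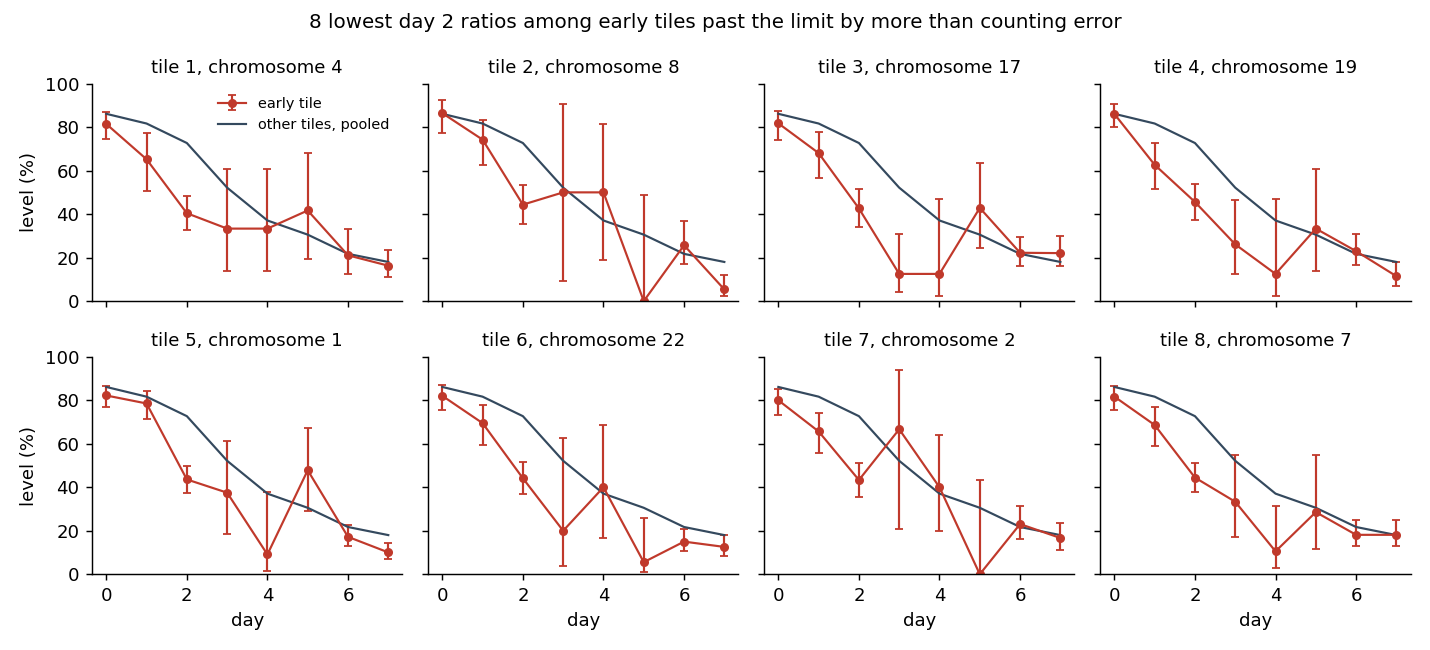
Level (%) by day of DNMT1* withdrawal in the 8 early tiles with the lowest day 2 ratio among those past the limit by more than counting error, with Wilson 95% intervals, beside the pooled level of the other eligible tiles. All 8 lie below the line on days 1 and 2, and on day 2 this follows from the choice of the tiles. On day 0 they stood at 80 to 86.4%, beside 86.1% for the line. The intervals of days 3 to 5 are wide, from 2 to 24 calls per tile and day.

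Early tiles with 100 or more calls on day 1 ranged from a large first step to none. The deepest of the steep ones was chr20:46771001-46772000, whose 7 CpGs were all low on day 2. Days 0 and 1 gave 519 of 644 methylated calls (80.6%) and 154 of 277 (55.6%, Wilson interval 49.7 to 61.3%). Day 2 gave 255 of 552 (46.2%), day 6 gave 66 of 517 (12.8%) and day 7 gave 56 of 514 (10.9%). Its day 1 level was below day 0 with an adjusted p of 8.3e-11 by Fisher's exact test. The tile was picked from the 5 with the lowest day 1 ratio, so that p is a description. It also treats every call as a separate molecule, and with calls averaged over CpGs 0 eligible tiles passed. On days 3, 4 and 5 it read 32.4, 14.8 and 16.0% from 50 to 81 calls, below the pooled 52.2, 37.1 and 30.6% of the other tiles.

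Across the 5 early tiles with the lowest day 1 ratio, 0.636 to 0.705, the levels were 80.6 to 88.4% on day 0, 52.2 to 62.0% on day 1 and 46.2 to 61.7% on day 2. Their adjusted p on day 1 was 0.00027 or less by Fisher's exact test. A pair of them stood at nearly the same level on days 2 and 1: chr19:42381001-42382000 read 82.1, 52.2 and 50% on days 0, 1 and 2, and chr17:76878001-76879000 read 88.4, 62.0 and 61.7%. These tiles were chosen for a low day 1 ratio, so their day 1 levels and adjusted p are a description.

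The 5 with the highest day 1 ratio, 1.05 to 1.08, read 81.3 to 88.2% on day 0, 85.8 to 93.8% on day 1 and 55.3 to 58.7% on day 2. None of these 5 passed the test on day 1 (adjusted p 0.24 to 0.58 by Fisher's exact test). The tile chr4:185350001-185351000 read 83.3, 89.7 and 58.2% on days 0, 1 and 2, and chr18:42027001-42028000 read 88.2, 93.8 and 58.7%. These tiles were chosen for a high day 1 ratio among tiles chosen to be low on day 2, so this course is a description.

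The 4 runs of 3 early tiles lay at chr4:1343001-1364000, chr15:42142001-42158000, chr19:10860001-10875000 and chr19:18075001-18094000. The 12 tiles read 80.3 to 95.2% on day 0, 67.3 to 92.4% on day 1, 47.9 to 63.4% on day 2 and 14.3 to 28.3% on day 7. No member of these runs was adjacent to another, and the flanks had ratios of 0.767 to 0.899. The tiles between them were not early or were not eligible.

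Among tiles with 500 or more calls on day 2, the 3 nearest to the limit on the inside were chr17:77261001-77262000, chr13:113497001-113498000 and chr9:139410001-139411000, at 61.0, 62.4 and 60.5% on day 2 and 79.2, 80.2 and 77.1% on day 1. The 3 nearest on the outside were chr7:101723001-101724000, chr17:78387001-78388000 and chr22:17841001-17842000, at 56.6, 56.2 and 57.3% on day 2 and 67.9, 70.3 and 66.1% on day 1. The tiles inside stood at 86.6 to 89.1% on day 0 and those outside at 80.3 to 81.6%. The day 1 ratio to day 0 was 0.890 to 0.908 inside and 0.809 to 0.876 outside, so the 3 tiles outside had the lower level and the lower ratio on day 1.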

How the data were processed

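The deposited files list 1 CpG per line with methylated and total reads and strand. The authors' deposited score equals 1000 times the methylated share, rounded to a whole number, in 100% of lines, and levels were computed from the read counts. The submitters' processing notes name hg19; the sources used here name no aligner, caller, filter or duplicate handling. Positions were changed to count from 1 and CpGs joined by position. Levels are calls pooled over passing CpGs. Intervals are Wilson 95% intervals. Fisher's exact tests were adjusted by Benjamini-Hochberg over all 107363 eligible tiles; all other comparisons of tiles are counts and medians without a test, as there is 1 library per day. Members, lists and comparisons were chosen with earlier results of these data known. Named tiles follow fixed rules: the 8 lowest day 2 ratios past the limit by more than counting error, the 5 lowest and 5 highest day 1 ratios with 100 or more calls on day 1, the largest runs, and the 3 tiles nearest the limit on each side with 500 or more calls on day 2. The chr20 tile of 7 CpGs is described in full because of its depth, which was chosen after its values were seen. The steps were tested on simulated data in which early tiles were planted only in deep tiles, well below the limit and with independent calls. That setting does not cover tiles of few calls close to the limit, where most early tiles lie. No hg19 sequence or annotation was used here. Python 3.11.15, numpy 2.4.6, pandas 2.3.3, scipy 1.17.1, numba 0.67.0 and matplotlib 3.10.9 were used.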

Additional observations from a re-analysis of the deposited data

Results flagged for a closer look

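The X chromosome was left out of the rule and of all comparisons. The same limits applied to it gave 70 early tiles of 2835 eligible ones (2.47%, Wilson 95% interval 1.959 to 3.11%), beside 1.83% on the autosomes. On day 1 the medians were 76.2% in its early tiles and 80.9% in its other eligible tiles, and on day 7 they were 16.9% and 17.7%. This was noted because the signal lies in data outside the comparisons, and the difference in share between X and autosomes was not tested.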

How the results depend on the processing

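The number of early tiles, 1965, depends on the limits: it was 382 at 0.65 of day 0, 8750 at 0.75, 1121 with at least 20 reads, 462 with at least 5 CpGs, 22 with the limit after counting error and 253 with 300 or more calls on day 2, and within 1.5 times of 1965 under the other 8 alternatives. The share below the day 1 median of the other tiles, 70.8%, was 68.55 to 86.4% under 15 alternatives: 73.9% with 20 reads, 77.7% with 5 CpGs, 73.0% at 0.65, 68.55% at 0.75, 86.4% after counting error, 83.4% with 300 calls and 73.0% as a ratio to day 0. The share called lower on day 1 by Fisher's exact test, 27.8%, was 31.0% with 20 reads, 43.1% with 5 CpGs, 32.2% at 0.65, 40.9% after counting error, 52.6% with 300 calls, 20.7% with 3 to 5 CpGs and 0% with calls averaged over CpGs. With averaged calls, 0% of all eligible tiles passed too. For the other settings the share over all eligible tiles was not computed. The test's power grows with calls per tile, so these shares cannot be set against the 20.5% of the main setting. The share below the day 7 median, 66.7%, was 69.4% at 0.65, 62.9% at 0.75, 69.3% with no day 6 window, 77.3% after counting error, 75.1% with 300 calls and 61.1% within day 6 bins. The share of flanks below the median, 60.5%, was 64.9% in 500-bp tiles, 54.55% (6 of 11) after counting error, 65.1% with 300 calls and 56.5% with 3 to 5 CpGs. The share with fewer listed CpGs, 78.2%, was 76.2% with CpGs weighted equally, 66.7% in 500-bp tiles, 80.1% with 5 CpGs, 80.4% at 0.65, 70.01% at 0.75, 81.8% after counting error and 80.2% with 300 calls. It crossed 50%, to 42.4%, among tiles with 3 to 5 CpGs, where the median is 4 and 33.4% of the other tiles lie below it. The settings of 300 calls, 3 to 5 CpGs, averaged calls, the day 1 ratio and the day 6 bins were added after seeing the data. Causes were not tested. No paired analysis was possible because each day has 1 library.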
